A study of Mus musculus with 36 samples.

Results

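The change from confluent brown pre-adipocytes (day 0) to cells 2 days into differentiation (day 2) was examined in 24 of the 36 RNA sequencing libraries of the series, 12 at each day, which were all the libraries labelled D0 and D2. The cells came from a clonal mouse brown pre-adipocyte line, in which *Rxra* had been disrupted by Cas9 to give the *Rxra*-/- isolates 48 and 66. A retrovirus then returned to each isolate either wild-type RXRα (*Rxra*WT cells) or RXRα with alanine in place of serine at residue 22 (*Rxra*SA cells). Each day therefore held 3 replicates of 48 *Rxra*WT, 48 *Rxra*SA, 66 *Rxra*WT and 66 *Rxra*SA. All cells reached confluence in medium with insulin and triiodothyronine, and between day 0 and day 2 dexamethasone, isobutylmethylxanthine and indomethacin were added as inducers. Time after confluence and the 3 inducers changed together and cannot be told apart. Each clone is a single isolate, clone 48 was sequenced in pool 1 and clone 66 in pool 2, and clone and pool cannot be told apart. The 3 replicates of a line are called technical in the deposited design and independent in the study's methods, so p-values may measure technical spread only.

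Fat cells arise from fibroblast-like precursors in a relay of transcription factors. Glucocorticoid and cyclic AMP signals raise C/EBPβ and C/EBPδ, which in turn raise PPARγ and C/EBPα, and PPARγ binds DNA as a pair with RXRα to switch on genes of fat storage. Meanwhile the cells round up, dismantle their actin stress fibres and replace the matrix of a fibroblast by that of a fat cell, and many lines divide again before they leave the cell cycle.

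Total counts per library lay between 11351078 and 24349263 at day 0 (median 17931961) and between 15664658 and 21388687 at day 2 (median 19170954). Mitochondrially encoded genes took 1.11% to 3.78% of the counts at day 0 and 1.25% to 4.86% at day 2, and ribosomal RNA genes took 0.0601% to 2.45% and 0.116% to 3.66%. Mitochondrial ribosomal RNA genes are in both shares. The part of either share in the results was not tested. Levels below are given as CPM, each library's counts relative to its total, after scaling by the trimmed mean of M-values (TMM). A gene was called changed at a Benjamini-Hochberg adjusted p under 0.05 in edgeR's quasi-likelihood test over 16723 genes, with clone and genotype in the model.

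The cells carried their labelled identity only in part. The summed level of 10 mature adipocyte markers rose from between 60.7 and 103 CPM at day 0 to between 3259 and 5789 CPM at day 2, without overlap. The summed level of 19 adipose progenitor markers was 1867 to 2582 CPM at day 0 and 948 to 1164 CPM at day 2, and 6 of them stayed under 1 CPM in all 24 libraries. Of 12 brown adipocyte markers, *Ucp1*, *Cidea*, *Cox7a1*, *Cox8b*, *Zic1*, *Lhx8*, *Prdm16* and *Otop1* stayed under 1 CPM in all 24 libraries. The summed level of the 12 was 3.43 to 41.2 CPM at day 0 and 13.4 to 143 CPM at day 2, with overlapping ranges. Of the 7 tested, 4 were higher at day 2 and 0 lower. *Ucp1*, the uncoupling protein that makes heat in brown fat, reached at most 0.0509 CPM at day 0 and 0.138 CPM at day 2. Of markers of other cells, 7 of 12 macrophage, 11 of 12 endothelial and 10 of 12 skeletal muscle markers stayed under 1 CPM throughout. Fewer markers of other mesenchymal cells did so, 4 of 10 for smooth muscle and pericytes (summed level 29.5 to 49.98 CPM at day 0 and 14.2 to 26.4 CPM at day 2) and 6 of 12 for osteoblasts and chondrocytes (17.7 to 34.2 CPM and 4.43 to 20.3 CPM). In bulk RNA, fewer cells of a type and less RNA per cell cannot be told apart.

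The day effect reached most expressed genes. Of the genes tested, 5989 (35.8%) were higher and 6270 (37.5%) lower at day 2, 73.3% in all, and 4637 (27.7%) did not overlap between the 12 libraries of either day. At least 2-fold differences were called for 2173 genes (13.0%) that were higher and 3084 (18.4%) that were lower. These shares are the background against which each gene list is read. Over all tested genes the median difference was -0.02 with TMM and -0.27 with library size alone (log2 scale), under which 4190 genes were called higher and 8264 lower, so that 33.6% of the calls were higher in place of 48.9%. Lists with medians near 0 therefore depended on the scaling, and counts under library size alone are given where the balance of a list moved. The plot of called members sets 47 lists beside the shares of all genes.

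**Figure D1:**
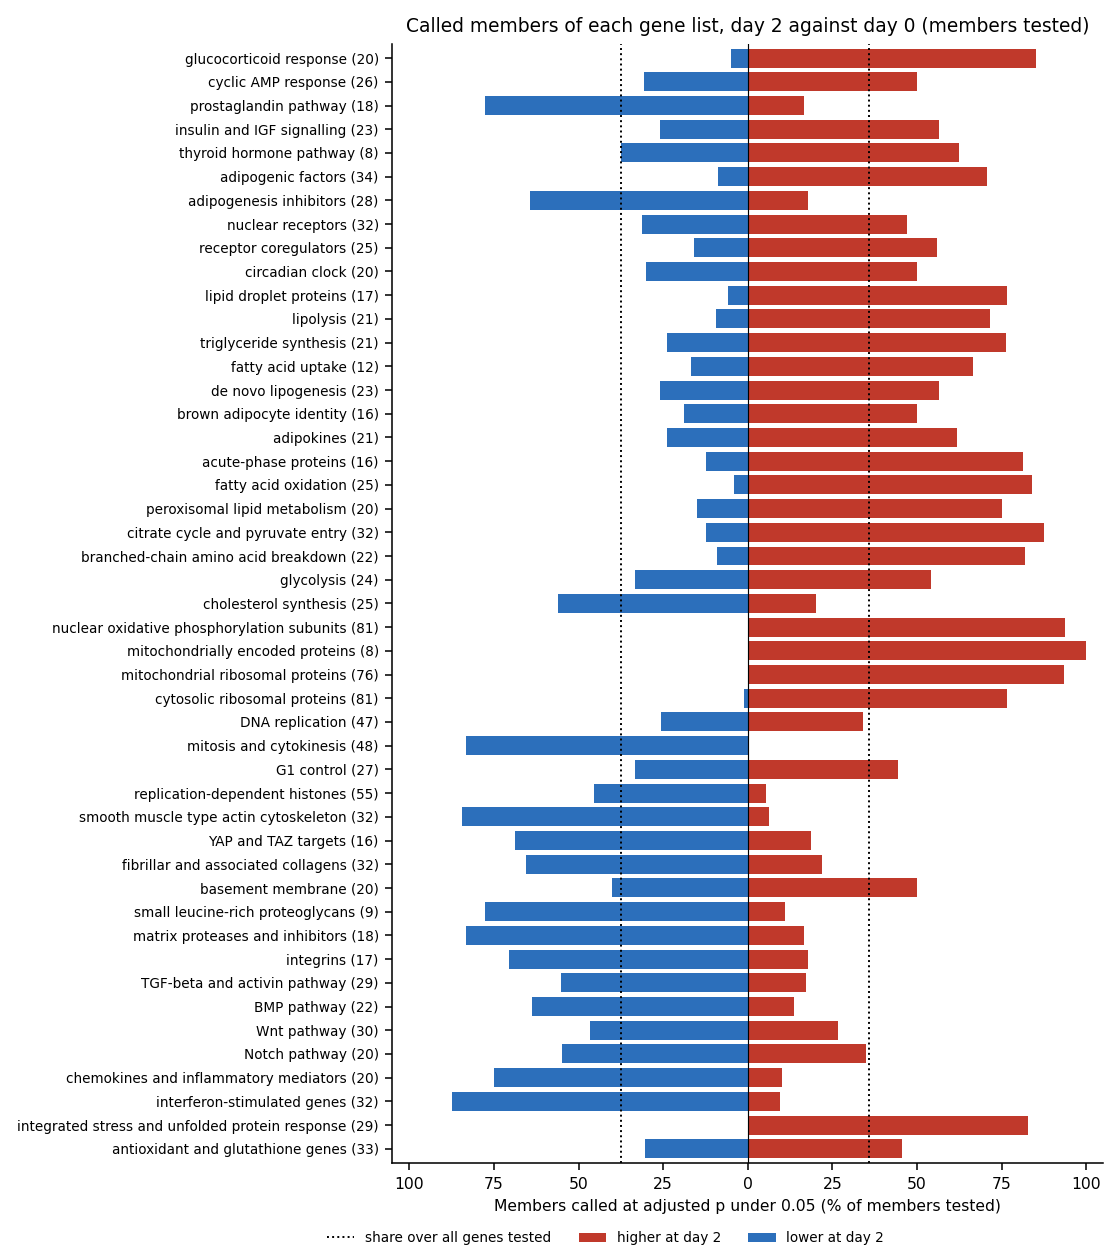
Share of the tested members of 47 gene lists called higher (red, to the right) or lower (blue, to the left) at day 2, as a percentage of the members tested, whose number stands in brackets. Dotted lines mark the shares over all genes tested, 35.8% higher and 37.5% lower, and the bars of nuclear oxidative phosphorylation subunits (93.8% higher) and of mitosis and cytokinesis (83.3% lower) lie on opposite sides.

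Genes tied to each inducer were listed apart. Dexamethasone activates the glucocorticoid receptor, and of 20 tested genes of the glucocorticoid response 17 were higher and 1 lower, with a median log2 fold change of 2.33. *Fkbp5*, which restrains the receptor and is a standard readout of its activity, lay from 23.7 to 51.7 CPM (median 36.8) at day 0 and from 419.7 to 958 CPM (median 613) at day 2 (log2 fold change 4.13, SE 0.12, adjusted p = 8.95e-26). *Tsc22d3*, an anti-inflammatory target also called GILZ, lay from 17.6 to 36.5 CPM (median 23.3) at day 0 and from 165 to 280.4 CPM (median 212) at day 2 (log2 fold change 3.21, SE 0.11, adjusted p = 7.22e-24). For both genes the lowest day 2 library was several-fold above the highest day 0 library. *Glul*, glutamine synthetase, had at most 5 counts in any day 0 library and reached 10.9 to 51.3 CPM (median 26.3) at day 2 (adjusted p = 5.86e-27). The receptor gene itself, *Nr3c1*, was not called, with 194 to 423 CPM (median 307) at day 0 and 192 to 422 CPM (median 315) at day 2 (adjusted p = 0.772), although with library size alone it was called lower (log2 fold change -0.23, adjusted p = 0.00476). *Fkbp5* was chosen after its values were seen.

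Isobutylmethylxanthine blocks the phosphodiesterases that break down cyclic AMP. Of 26 tested genes of the cyclic AMP response, 13 were higher and 8 lower (12 and 11 with library size alone), and the median was 0.39, or 0.16 with 4 members of at most 3 counts in every library of a day set at the bound that 3 counts allow. *Prkar2b*, a regulatory subunit of the cyclic AMP-dependent kinase, lay from 139.6 to 224 CPM (median 183) at day 0 and from 729 to 1328 CPM (median 941) at day 2 (log2 fold change 2.37, SE 0.07, adjusted p = 1.56e-24), and its ranges were far apart. *Junb*, an AP-1 subunit, lay from 15.1 to 33 CPM (median 24.4) at day 0 and from 7.22 to 30.6 CPM (median 13.2) at day 2, with overlapping ranges (log2 fold change -0.68, SE 0.14, adjusted p = 5.79e-05). *Egr1*, an early response factor, was not called, and a wide range of 0.555 to 34.4 CPM (median 1.44) at day 2 stood beside 2.44 to 12.3 CPM (median 4.55) at day 0.

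Indomethacin inhibits the cyclo-oxygenases that make prostaglandins. Most genes of the prostaglandin pathway were lower at day 2, 14 of 18 tested with a median of -1.33, and 3 were higher. *Ptgs2*, the inducible cyclo-oxygenase, lay from 55.8 to 125 CPM (median 81.8) at day 0 and from 8.22 to 34.3 CPM (median 20.5) at day 2 (log2 fold change -2.26, SE 0.16, adjusted p = 1.34e-14). *Ptges2*, a mitochondrial prostaglandin E synthase, went the other way and lay from 25.9 to 37 CPM (median 29.5) at day 0 and from 114 to 157 CPM (median 134) at day 2 (log2 fold change 2.15, SE 0.08, adjusted p = 9.07e-23). Neither gene had overlapping ranges.

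Insulin and triiodothyronine were present on both days. Of 23 genes of insulin and IGF signalling 13 were higher and 6 lower, with a median of 1.15. *Trib1* and *Trib3*, pseudokinases of which TRIB3 can bind AKT, reached 13 to 61.3 CPM (median 28.5) and 42.9 to 117 CPM (median 79.6) at day 2 from 0.81 to 3.8 CPM (median 1.74) and 3.65 to 13.6 CPM (median 6.52) at day 0. *Igfbp6*, a secreted protein that binds IGF2, lay from 16.9 to 37.3 CPM (median 26.9) at day 0 and from 0.949 to 2.29 CPM (median 1.56) at day 2 (log2 fold change -4.03, SE 0.15, adjusted p = 1.09e-22), so that no day 2 library came near a day 0 library. In the thyroid hormone pathway 5 of 8 genes were higher and 3 lower, or 3 higher and 3 lower with library size alone. The transporter gene *Slc16a10*, whose product carries thyroid hormones and aromatic amino acids, lay from 7.57 to 12.3 CPM (median 9.85) at day 0 and from 108 to 205 CPM (median 138) at day 2 (log2 fold change 3.87, SE 0.13, adjusted p = 6.54e-24). The clock list, which responds to several of these signals, had 10 of 20 members higher and 6 lower, or 8 and 7 with library size alone. *Nfil3*, a repressor of D-box genes, rose with a log2 fold change of 2.67, while *Dbp*, an activator of the same element, fell by 1.92.

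The adipogenic transcription factors rose as a group. Of 34 tested factors that promote adipogenesis 24 were higher and 3 lower, with a median of 1.31, and 23 members were called in the same direction in each clone alone. *Pparg*, the factor that fat cells cannot form without, lay from 55.3 to 95.8 CPM (median 75.5) at day 0 and from 327 to 490.4 CPM (median 392.4) at day 2 (log2 fold change 2.41, SE 0.08, adjusted p = 2.22e-23). *Cebpa*, its partner in keeping the fat cell state, lay from 7.66 to 41.4 CPM (median 18.2) at day 0 and from 622 to 862 CPM (median 711) at day 2 (log2 fold change 5.10, SE 0.17, adjusted p = 1.01e-23). The ranges of the earlier factors did not overlap either. *Cebpb* lay from 6.67 to 12.5 CPM (median 9.85) at day 0 and from 43.1 to 93.7 CPM (median 76.6) at day 2 (log2 fold change 2.85, SE 0.13, adjusted p = 5.72e-20). *Cebpd* lay from 6.25 to 12.2 CPM (median 9.29) at day 0 and from 34.8 to 81.9 CPM (median 51.1) at day 2 (log2 fold change 2.53, SE 0.13, adjusted p = 1.12e-18). *Irf4*, a regulator of lipolysis and of heat production in fat, was almost silent at day 0, with at most 11 counts in a library, and reached 5.75 to 15.9 CPM (median 10.1) at day 2 (adjusted p = 1.13e-20).

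*Srebf1*, which drives fatty acid synthesis genes, lay from 55.5 to 108 CPM (median 65.9) at day 0 and from 289 to 683 CPM (median 407) at day 2 (log2 fold change 2.55, SE 0.16, adjusted p = 2.74e-16). *Nr1h3*, the oxysterol receptor LXRα, lay from 8.34 to 12.8 CPM (median 9.84) at day 0 and from 28.2 to 47.5 CPM (median 34.1) at day 2 (log2 fold change 1.82, SE 0.09, adjusted p = 2.16e-18). *Ppargc1b*, a coactivator of mitochondrial genes, lay from 0.891 to 4.74 CPM (median 1.61) at day 0 and from 13.3 to 34.8 CPM (median 20.05) at day 2 (log2 fold change 3.40, SE 0.26, adjusted p = 6.43e-14). Its relative *Ppargc1a* changed less, from 10.4 to 17.7 CPM (median 13.6) at day 0 and from 16.1 to 31.3 CPM (median 19.5) at day 2, with overlapping ranges (log2 fold change 0.62, SE 0.13, adjusted p = 4.34e-05). Of 25 receptor coregulators 14 were higher, 4 lower and 7 not called (9 higher and 7 lower with library size alone). *Rxra* lay from 92.6 to 233 CPM (median 170.2) at day 0 and from 399.5 to 712 CPM (median 570.0) at day 2, but counts from the introduced *Rxra* and from the disrupted gene were not separated, so this is no clean readout of either.

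Among 32 tested nuclear receptors 15 were higher and 10 lower, a split that became 11 and 14 with library size alone. *Esrra*, a receptor of mitochondrial genes, lay from 35.2 to 43.9 CPM (median 38.2) at day 0 and from 68.5 to 155 CPM (median 92.6) at day 2 (log2 fold change 1.32, SE 0.09, adjusted p = 1.54e-14), without overlap. *Rarg*, a retinoic acid receptor that also pairs with RXR, moved down and lay from 33.2 to 65.5 CPM (median 47.1) at day 0 and from 5.07 to 9.27 CPM (median 8.06) at day 2 (log2 fold change -2.69, SE 0.10, adjusted p = 1.31e-22). *Ppara* and *Mlxipl* were below the filter, with at most 0.31 and 0.13 CPM in any of these libraries.

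Factors known to hold back adipogenesis moved mainly down, with 18 of 28 tested lower, 5 higher and a median of -1.03. *Prrx1*, a homeobox factor of mesenchymal cells, lay from 187 to 283 CPM (median 219) at day 0 and from 32.7 to 47.6 CPM (median 39.9) at day 2 (log2 fold change -2.43, SE 0.08, adjusted p = 3.76e-24). *Wnt10b*, a ligand that blocks adipogenesis, lay from 0.891 to 3.97 CPM (median 1.88) at day 0 and from 0 to 0.112 CPM (median 0.0543) at day 2, with at most 3 counts in any day 2 library (adjusted p = 7.23e-17). *Twist1* fell more mildly and without overlap, from 16.9 to 26.1 CPM (median 20.8) at day 0 and from 10.7 to 14.9 CPM (median 11.4) at day 2 (log2 fold change -0.81, SE 0.08, adjusted p = 1.36e-11). The group was not uniform. *Ddit3*, a C/EBP-like factor induced by stress that can block C/EBPβ, rose and lay from 37.2 to 48.4 CPM (median 42.3) at day 0 and from 102 to 276 CPM (median 169) at day 2 (log2 fold change 2.05, SE 0.18, adjusted p = 1.61e-12), and *Wwtr1*, which encodes TAZ, rose with overlapping ranges (log2 fold change 0.68, SE 0.06, adjusted p = 5.71e-12). *Yap1* and *Gata3* were not called (adjusted p = 0.954 and 0.634).

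Across 16 families of transcription factors, 318 members were tested, of which 89 were higher and 154 lower, with a median of -0.25. Homeobox factors, which carry positional identity, were lower in 41 of 56 and higher in 9 (median -0.78). The SMAD, SNAI, ZEB and GLI group had 13 of 18 lower and 2 higher, and the NF-kappaB and NFAT group 6 of 9 lower and 1 higher. Clock output and stress factors leaned the other way, with 12 of 22 higher and 5 lower. *Osr1*, a zinc finger factor of connective tissue progenitors, lay from 41.7 to 104.7 CPM (median 67.2) at day 0 and from 1.44 to 5.7 CPM (median 3.32) at day 2 (log2 fold change -4.33, SE 0.14, adjusted p = 7.42e-24). *Ahr*, the xenobiotic receptor, lay from 35.6 to 80.9 CPM (median 47.4) at day 0 and from 3.47 to 10.1 CPM (median 6.16) at day 2 (log2 fold change -3.12, SE 0.10, adjusted p = 6.57e-25). *Tead2*, a DNA-binding partner of YAP and TAZ, lay from 15.2 to 60.9 CPM (median 30.9) at day 0 and from 1.43 to 7.33 CPM (median 4.1) at day 2 (log2 fold change -3.003, SE 0.15, adjusted p = 3.46e-19). The plot of regulators by library gives each of the 24 values.

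**Figure D2:**
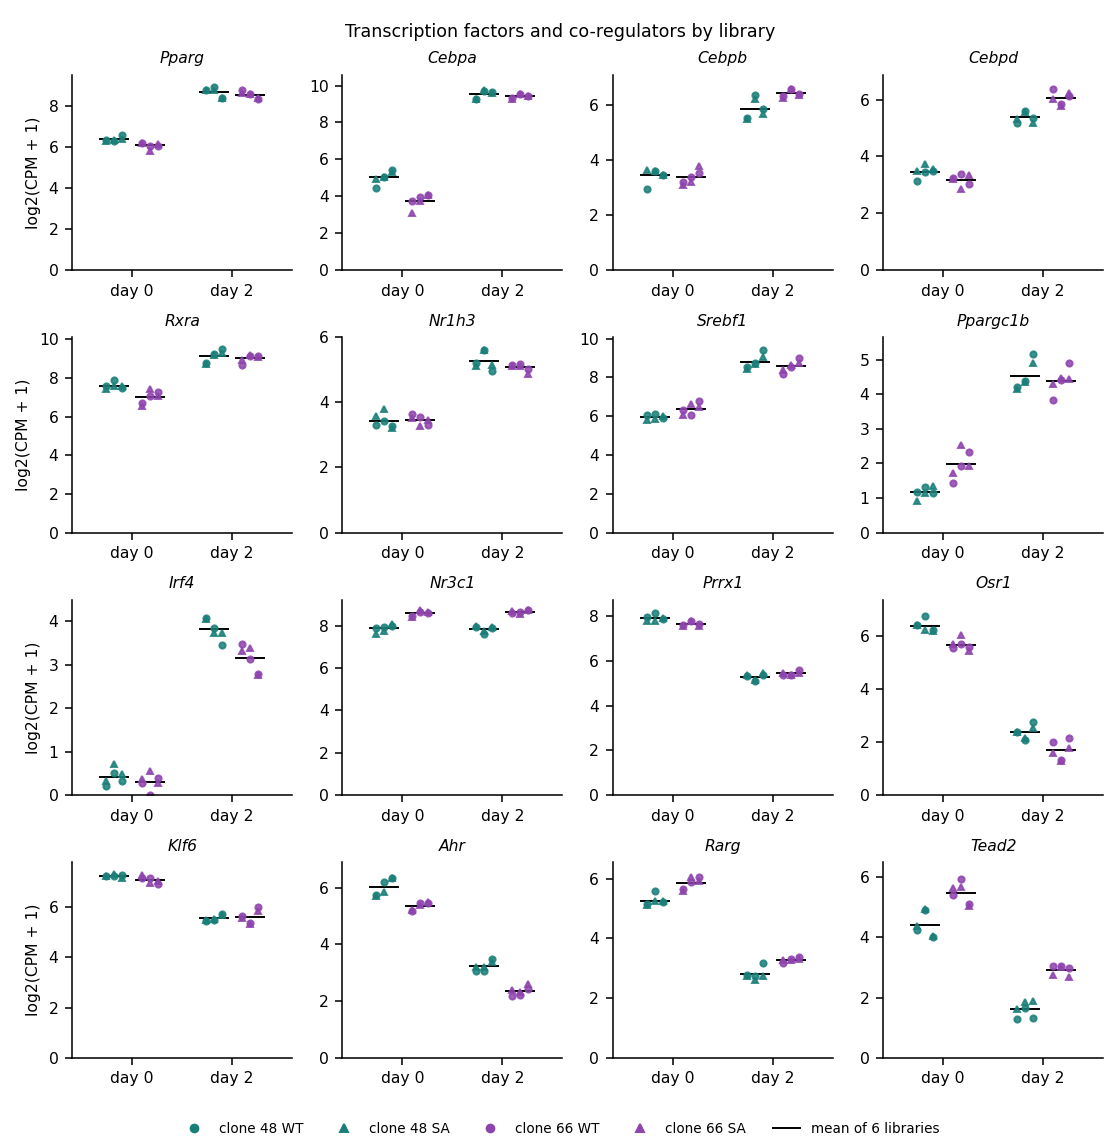
Levels of 16 transcription factors and co-regulators in each library, as log2(CPM + 1), at day 0 and day 2, with clone 48 in green, clone 66 in purple, *Rxra*WT as circles, *Rxra*SA as triangles and bars at the mean of 6 libraries. *Pparg* rises from 55.3 to 95.8 CPM at day 0 to 327 to 490.4 CPM at day 2 in all lines, *Nr3c1* differs by less than the spread between libraries with TMM scaling and is lower with library size alone, and *Prrx1* to *Tead2* fall.

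The genes of the lipid droplet and of lipid turnover followed. Of 17 droplet proteins 13 were higher and 1 lower, with a median of 1.08 (0.88 with bounds for 2 members). *Cidec*, which fuses droplets into large ones, lay from 0.287 to 4.48 CPM (median 1.46) at day 0 and from 369.8 to 592 CPM (median 489) at day 2 (log2 fold change 8.13, SE 0.31, adjusted p = 2.8e-22). *Plin3*, the coat protein of small droplets found in most cells, was the member that was lower and lay from 146 to 279.6 CPM (median 185) at day 0 and from 72.7 to 95.7 CPM (median 83.5) at day 2 (log2 fold change -1.18, SE 0.09, adjusted p = 9.95e-14). Neither gene had overlapping ranges. Of 21 lipolysis genes 15 were higher and 2 lower (median 2.27, or 2.16 with bounds for 5 members). *Mgll*, monoacylglycerol lipase, had at most 2 counts in any day 0 library and 4.53 to 17.1 CPM (median 8.2) at day 2, at least 54.3-fold higher at the medians with day 0 set at 3 counts. *Lipa*, the lysosomal lipase, was lower and lay from 171 to 311 CPM (median 241) at day 0 and from 66.4 to 116 CPM (median 88.6) at day 2 (log2 fold change -1.39, SE 0.08, adjusted p = 1.87e-17).

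Triglyceride synthesis genes rose in the main, with 16 of 21 higher and 5 lower (median 1.21). *Gpd1*, which makes glycerol 3-phosphate, lay from 1.45 to 2.34 CPM (median 1.87) at day 0 and from 395 to 587 CPM (median 453) at day 2 (log2 fold change 7.96, SE 0.12, adjusted p = 2.8e-33). *Gpat3*, which adds the fatty acid that begins the molecule, lay from 5.98 to 10.6 CPM (median 8.21) at day 0 and from 1038 to 1659.7 CPM (median 1261) at day 2 (log2 fold change 7.28, SE 0.14, adjusted p = 1.81e-30). *Lpin3* and *Acsl5* were lower, at 2.42 to 8.39 CPM (median 4.96) and 41.1 to 68.3 CPM (median 57.4) at day 2 against 11.4 to 45.5 CPM (median 22) and 96.3 to 152 CPM (median 136) at day 0. Fatty acid uptake genes were higher in 8 of 12 and lower in 2. *Cd36*, the scavenger receptor that takes up fatty acids, lay from 0.844 to 3 CPM (median 1.71) at day 0 and from 261 to 908 CPM (median 639) at day 2 (log2 fold change 8.46, SE 0.22, adjusted p = 1.04e-26). De novo lipogenesis was divided, with 13 of 23 higher and 6 lower (11 and 8 with library size alone): *Scd1*, which desaturates stearate, rose (log2 fold change 2.94, SE 0.18, adjusted p = 1.32e-16), and *Elovl6*, which lengthens palmitate, fell and lay from 51.4 to 211 CPM (median 116) at day 0 and from 8.57 to 31.5 CPM (median 16) at day 2 (log2 fold change -2.93, SE 0.12, adjusted p = 1.67e-21).

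Secreted products of fat cells appeared within the same 2 days. *Adipoq*, adiponectin, differed between clones on both days. It stood at 1.58 to 5.39 CPM at day 0 and 533.7 to 1142 CPM at day 2 in clone 48, and at 0.0432 to 0.713 CPM and 67.5 to 144.5 CPM in clone 66, so that neither the days within a clone nor the clones within a day overlapped (log2 fold change 7.99, SE 0.41, adjusted p = 1.15e-18). *Fabp4*, the fatty acid chaperone of adipocytes, lay from 22.9 to 71 CPM (median 41.7) at day 0 and from 1407 to 2484 CPM (median 1929) at day 2 (log2 fold change 5.43, SE 0.15, adjusted p = 4.1e-26). *Retn*, resistin, had at most 3 counts per library at day 0 and 12.8 to 26 CPM (median 16.5) at day 2. Of 21 adipokines 13 were higher and 5 lower (median 1.16). *Metrnl* was lower and lay from 14.2 to 24.8 CPM (median 19.3) at day 0 and from 6.38 to 11.5 CPM (median 9.14) at day 2 (log2 fold change -1.08, SE 0.10, adjusted p = 5.41e-12). Acute-phase proteins stood high, with 13 of 16 higher and 2 lower (median 5.25, or 3.85 without a filter on low counts). *C3*, the central complement component, lay from 0.173 to 2.82 CPM (median 0.689) at day 0 and from 175 to 533 CPM (median 360.0) at day 2 (log2 fold change 8.69, SE 0.35, adjusted p = 1.22e-21). *Ptx3*, a pentraxin, was lower with overlapping ranges (log2 fold change -2.03, SE 0.23, adjusted p = 7.6e-10).

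Of 16 tested brown identity genes 8 were higher and 3 lower. *Kcnk3*, a potassium channel of brown fat, lay from 2.58 to 9.38 CPM (median 5.31) at day 0 and from 9.01 to 54.7 CPM (median 22.3) at day 2, with overlapping ranges (log2 fold change 2.20, SE 0.20, adjusted p = 4.86e-12). *Ebf2*, a factor of brown precursors, rose by 1.10 in clone 48 and 1.26 in clone 66 on the log2 scale (difference 0.12, SE 0.26, adjusted p = 0.896) from very different levels, which were 16.9 to 32.5 CPM (median 28.4) at day 0 in clone 48 and 0.143 to 0.423 CPM (median 0.252) in clone 66. At day 2 it stood at 41 to 78.8 CPM (median 50.5) and 0.498 to 1.04 CPM (median 0.631). The ranges of the clones did not overlap on either day.

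Mitochondrial genes rose in large numbers. Nuclear genes for subunits of oxidative phosphorylation, the chain that turns fuel into ATP, were higher for 76 of 81 tested and lower for 0 (median 0.97), and 73 were called in the same direction in each clone alone. *Cycs*, cytochrome c, lay from 19.5 to 46.3 CPM (median 28.7) at day 0 and from 200.1 to 353 CPM (median 293) at day 2 (log2 fold change 3.21, SE 0.16, adjusted p = 7.71e-19). *Uqcrq*, a subunit of complex III, lay from 14.8 to 97.1 CPM (median 53.1) at day 0 and from 217 to 374 CPM (median 262) at day 2 (log2 fold change 2.31, SE 0.18, adjusted p = 6.48e-14). Of 13 mitochondrially encoded protein genes only 8 passed the filter on low counts, and all 8 were higher as well (7 with library size alone). *mt-Nd6*, counted without use of strand, lay from 31.2 to 56.4 CPM (median 43.3) at day 0 and from 68 to 120.3 CPM (median 94.9) at day 2 (log2 fold change 1.10, SE 0.11, adjusted p = 2.16e-11). Mitochondrial ribosomal proteins were higher for 71 of 76 and lower for 0 (median 0.93). With library size alone the numbers were 69 higher and 2 lower of the nuclear subunits and 63 higher and 3 lower of the ribosomal proteins.

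Fuel pathways that feed the chain moved with it. All 32 genes of the citrate cycle and pyruvate entry were called, 28 higher and 4 lower (median 1.49), and each was also called in the same direction in both clones. *Idh3a*, the catalytic subunit of isocitrate dehydrogenase, lay from 32.7 to 107 CPM (median 70.0) at day 0 and from 657 to 1243 CPM (median 1083) at day 2 (log2 fold change 3.93, SE 0.21, adjusted p = 2.42e-18). *Pcx*, pyruvate carboxylase, lay from 73.1 to 138 CPM (median 97.8) at day 0 and from 1029 to 2283 CPM (median 1454) at day 2 (log2 fold change 3.92, SE 0.19, adjusted p = 4.24e-19). *Pdk3*, a kinase that turns pyruvate dehydrogenase off, was among the lower members and lay from 36.5 to 69.7 CPM (median 50.5) at day 0 and from 14.4 to 18.6 CPM (median 16.1) at day 2 (log2 fold change -1.67, SE 0.08, adjusted p = 4.85e-19). Of 25 fatty acid oxidation genes 21 were higher and 1 lower (median 1.24). The medium-chain dehydrogenase gene *Acadm* lay from 144 to 249.8 CPM (median 192) at day 0 and from 1040.0 to 2020.0 CPM (median 1518) at day 2 (log2 fold change 2.94, SE 0.09, adjusted p = 1.65e-25). The exception was *Cpt1c*, the isoform of carnitine palmitoyltransferase typical of neurons, from 10.05 to 28.7 CPM (median 16.7) at day 0 and from 1.63 to 8.01 CPM (median 5.03) at day 2 (log2 fold change -2.03, SE 0.12, adjusted p = 7.05e-17).

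Breakdown of branched-chain amino acids showed 18 of 22 genes higher and 2 lower. *Bcat2*, the mitochondrial transaminase, lay from 9.56 to 32.7 CPM (median 23.3) at day 0 and from 88.3 to 295 CPM (median 178) at day 2 (log2 fold change 3.07, SE 0.23, adjusted p = 4.51e-14), whereas its cytosolic relative *Bcat1* fell by 0.47 on the log2 scale with overlapping ranges (adjusted p = 0.0369, a call lost when the WT and SA counts of the same clone, day and number were summed). Of 20 genes of peroxisomal lipid metabolism 15 were higher and 3 lower. *Pex11a*, which divides peroxisomes, lay from 5.43 to 15.4 CPM (median 12.7) at day 0 and from 108 to 253 CPM (median 167) at day 2 (log2 fold change 3.93, SE 0.17, adjusted p = 2.45e-20). Glycolysis was mixed, 13 of 24 higher and 8 lower (11 and 11 with library size alone, where the median turned from 0.25 to -0.01). Its hexokinases changed in opposite directions: *Hk2* lay from 1.83 to 15.8 CPM (median 6.84) at day 0 and from 58.6 to 181 CPM (median 108) at day 2 (log2 fold change 4.004, SE 0.29, adjusted p = 1.57e-14), and *Hk1* lay from 39.9 to 220.2 CPM (median 83.4) at day 0 and from 15 to 70.8 CPM (median 32.6) at day 2, with overlapping ranges (log2 fold change -1.50, SE 0.31, adjusted p = 5.26e-05).

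Cholesterol synthesis leaned down, with 14 of 25 genes lower and 5 higher (median -0.62). *Fdft1*, squalene synthase, lay from 88.7 to 209 CPM (median 139) at day 0 and from 23.8 to 36.9 CPM (median 29.6) at day 2 (log2 fold change -2.21, SE 0.11, adjusted p = 2.98e-19). *Hmgcs1*, which acts early in the same pathway, rose without overlap and lay from 274 to 553 CPM (median 453) at day 0 and from 787 to 1371 CPM (median 1113) at day 2 (log2 fold change 1.36, SE 0.10, adjusted p = 8.97e-15). Cytosolic ribosomal proteins were higher for 62 of 81 and lower for 1, at a median of only 0.41, and this count fell to 29 higher and 3 lower with library size alone.

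None of 48 tested genes of mitosis and cytokinesis was higher and 40 were lower (median -0.74). *Kif23*, a kinesin of the cleavage furrow, lay from 47.9 to 86.8 CPM (median 68) at day 0 and from 12.3 to 28.2 CPM (median 17) at day 2 (log2 fold change -1.86, SE 0.09, adjusted p = 1.28e-19). *Ndc80*, a kinetochore protein, lay from 96.7 to 138 CPM (median 119.6) at day 0 and from 31.1 to 58.5 CPM (median 37.3) at day 2 (log2 fold change -1.56, SE 0.10, adjusted p = 7.36e-16). Neither overlapped. DNA replication genes showed no such lean, with 16 of 47 higher, 12 lower and a median of -0.04, but with library size alone 7 were higher and 25 lower. *Ccne1*, the cyclin that opens S phase, lay from 17.1 to 27.4 CPM (median 21.9) at day 0 and from 61.4 to 79.5 CPM (median 70.5) at day 2 (log2 fold change 1.66, SE 0.08, adjusted p = 1.18e-19). *Gins3*, part of the replicative helicase, lay from 33.8 to 48.7 CPM (median 38.7) at day 0 and from 20.6 to 35.5 CPM (median 26.9) at day 2, with overlapping ranges (log2 fold change -0.56, SE 0.10, adjusted p = 7.12e-06). Replication-dependent histones, made in S phase, were lower for 25 of 55 and higher for 3, with 39 lower and 2 higher with library size alone and 16 lower when the WT and SA counts of the same clone, day and number were summed.

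Control of G1 was divided, 12 of 27 higher and 9 lower (9 and 11 with library size alone). *Myc* lay from 4.78 to 18.4 CPM (median 9.25) at day 0 and from 18.9 to 72.6 CPM (median 39.4) at day 2 (log2 fold change 2.13, SE 0.26, adjusted p = 5e-09). *Cdkn1a*, the inhibitor p21, rose beside it and lay from 3.16 to 33.9 CPM (median 10.2) at day 0 and from 45.4 to 237 CPM (median 113) at day 2 (log2 fold change 3.15, SE 0.36, adjusted p = 1.17e-09). *Cdkn2b*, the inhibitor p15, lay from 45.9 to 89.2 CPM (median 60.1) at day 0 and from 13.7 to 23.1 CPM (median 18.1) at day 2 (log2 fold change -1.79, SE 0.09, adjusted p = 4.96e-19). None of the 3 had overlapping ranges. *Ccnd1*, cyclin D1, overlapped between days, at 4.18 to 37.9 CPM (median 16.9) and 1.85 to 7 CPM (median 3.22) (log2 fold change -2.18, SE 0.32, adjusted p = 2.04e-07).

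Genes of the contractile cytoskeleton fell. Of 32 genes of smooth muscle type actin 27 were lower and 2 higher (median -1.38). *Acta2*, the actin of stress fibres in myofibroblasts, lay from 123 to 431 CPM (median 289.6) at day 0 and from 0.672 to 2.05 CPM (median 1.35) at day 2 (log2 fold change -7.71, SE 0.23, adjusted p = 4.16e-25). *Myl9*, a myosin regulatory light chain, lay from 59.2 to 141 CPM (median 85.9) at day 0 and from 0 to 0.818 CPM (median 0.492) at day 2 (log2 fold change -7.56, SE 0.22, adjusted p = 2.25e-25). *Cnn2*, a calponin that binds actin, lay from 586 to 1058 CPM (median 832) at day 0 and from 15.8 to 30.8 CPM (median 20.8) at day 2 (log2 fold change -5.24, SE 0.10, adjusted p = 9.07e-31) and was chosen after its values were seen. None of these genes came near overlap. Targets of YAP and TAZ, coactivators that respond to tension, were lower for 11 of 16 and higher for 3 (median -1.84). *Ankrd1*, a widely used YAP readout, lay from 93.5 to 269 CPM (median 162) at day 0 and from 0.332 to 2.48 CPM (median 1.39) at day 2 (log2 fold change -6.90, SE 0.24, adjusted p = 1.97e-23). *Ajuba*, a LIM protein of cell junctions, lay from 50.5 to 65 CPM (median 57.9) at day 0 and from 4.39 to 8.49 CPM (median 5.76) at day 2 (log2 fold change -3.29, SE 0.10, adjusted p = 4.55e-25). *Nt5e* was the member with the largest rise, from 0.561 to 2.11 CPM (median 1.36) at day 0 and from 2.51 to 8.19 CPM (median 5.09) at day 2 (log2 fold change 1.85, SE 0.24, adjusted p = 1.69e-08).

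The promoters shown here are of members that carried a motif and fell. The sequences are from RefSeq and run 5′ to 3′ in the direction of the gene. The match nearest the start site is in capitals, and the flanking bases in lower case can hold further matches. The window searched was the 250 bases before each start site, on both strands, and a gene counted if any of its promoters held a match. In actin genes the motif was the CArG box, a run of 6 A or T bases between CC and GG that serum response factor binds. It was present in 22.2% of the 27 list genes with a promoter found, against 1.62% of 27025 genes with a promoter. The list genes were tested genes, and the 27025 were not restricted to these. Such shares describe which genes a list holds and say nothing about the day effect. In YAP and TAZ targets the motif was GGAATG, a TEAD site, present in 53.8% of 13 list genes against 14.4% of all genes with a promoter. In the actin list this site was present in 40.7%. None of the stretches printed here overlaps an annotated exon. A match describes letters in the window and is no measured site. Members that did not fall carried the motifs as well. *Vcl*, with a CArG box, was not called (log2 fold change 0.28), and *Ptpn14*, with a TEAD site, was higher (0.77).
Myl9 (chr2:156775278-156775337, plus strand of GRCm38.p6): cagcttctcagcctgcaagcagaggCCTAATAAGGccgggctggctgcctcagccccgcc
Cnn2 (chr10:79988519-79988578, plus strand of GRCm38.p6): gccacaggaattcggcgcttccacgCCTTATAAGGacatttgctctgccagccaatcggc
Ajuba (chr14:54577795-54577850, minus strand of GRCm38.p6): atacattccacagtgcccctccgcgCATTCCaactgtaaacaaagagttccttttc

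Genes of the extracellular matrix differed by type. The list of fibrillar and associated collagens, which also held *Lox* and *Thbs1*, was lower for 21 of 32 and higher for 7 (median -1.13). *Lox*, which crosslinks collagen, lay from 1946 to 3665 CPM (median 2684) at day 0 and from 40.2 to 107 CPM (median 88.2) at day 2 (log2 fold change -5.18, SE 0.18, adjusted p = 4.64e-23). *Thbs1*, thrombospondin 1, lay from 449 to 1217 CPM (median 803) at day 0 and from 4.37 to 21.6 CPM (median 6.44) at day 2 (log2 fold change -6.47, SE 0.39, adjusted p = 1.23e-16). *Col6a3*, a chain of the microfibrillar type VI collagen abundant in fat, rose with overlapping ranges and lay from 249.7 to 1066 CPM (median 565) at day 0 and from 686 to 3978 CPM (median 1910.1) at day 2 (log2 fold change 1.66, SE 0.29, adjusted p = 4.1e-06). Basement membrane genes were divided, 10 of 20 higher and 8 lower. *Col15a1* lay from 0.25 to 6 CPM (median 1.84) at day 0 and from 33.1 to 242 CPM (median 85.9) at day 2 (log2 fold change 5.75, SE 0.43, adjusted p = 5.29e-14), and *Col4a6* fell, from 94.5 to 184 CPM (median 125) at day 0 and from 14.7 to 30.4 CPM (median 23.2) at day 2 (log2 fold change -2.55, SE 0.12, adjusted p = 8.8e-20). Neither of these genes had overlapping ranges.

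The list of matrix proteases and their inhibitors had a lower median than the collagen list. Of 18 matrix proteases and inhibitors 15 were lower and 3 higher (median -3.13). *Plat*, tissue plasminogen activator, lay from 116 to 181 CPM (median 145) at day 0 and from 1.79 to 5.58 CPM (median 3.34) at day 2 (log2 fold change -5.40, SE 0.16, adjusted p = 4.44e-25). *Mmp23* lay from 106 to 159 CPM (median 124) at day 0 and from 1.76 to 5.04 CPM (median 3.23) at day 2 (log2 fold change -5.18, SE 0.14, adjusted p = 5.06e-26). Neither had overlapping ranges. Integrins were lower for 12 of 17 and higher for 3. *Itga3*, a laminin receptor subunit, lay from 32.2 to 92.3 CPM (median 53.2) at day 0 and from 3.61 to 14.1 CPM (median 5.49) at day 2 (log2 fold change -3.05, SE 0.24, adjusted p = 9.47e-14). *Itga7*, another laminin receptor subunit, rose instead and lay from 1.04 to 2.12 CPM (median 1.36) at day 0 and from 12 to 24.6 CPM (median 18.8) at day 2 (log2 fold change 3.64, SE 0.12, adjusted p = 3.76e-24). Small leucine-rich proteoglycans were lower for 7 of 9 and higher for 1.

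Progenitor surface markers were lower for 12 of 14 tested and higher for 1 (median -2.28). *Ly6a*, the progenitor marker SCA-1, lay from 16.3 to 98 CPM (median 48.4) at day 0 and from 0.553 to 9.54 CPM (median 3.01) at day 2 (log2 fold change -4.05, SE 0.17, adjusted p = 2.29e-21). *Ly6c1*, a neighbour of the same family, lay from 11.4 to 73.5 CPM (median 35.5) at day 0 and from 0.52 to 7.28 CPM (median 2.86) at day 2 (log2 fold change -3.79, SE 0.18, adjusted p = 1.41e-19). *Dlk1*, a classical pre-adipocyte marker, had at most 1 count in any day 0 library and 0 at day 2.

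The TGF-beta and activin list was lower for 16 of 29 and higher for 5. *Fstl1*, a secreted follistatin-like protein, lay from 1035 to 2864 CPM (median 1781) at day 0 and from 142 to 294 CPM (median 206) at day 2 (log2 fold change -3.07, SE 0.09, adjusted p = 4.68e-26). *Tgfbr1*, a receptor of TGF-beta, lay from 31.9 to 61.1 CPM (median 44.3) at day 0 and from 93.5 to 157 CPM (median 114) at day 2 (log2 fold change 1.44, SE 0.07, adjusted p = 1.19e-18). In the BMP list 14 of 22 were lower and 3 higher. *Grem1*, a secreted BMP antagonist, lay from 911 to 1458 CPM (median 1059.5) at day 0 and from 16.2 to 59.4 CPM (median 31) at day 2 (log2 fold change -5.11, SE 0.17, adjusted p = 3.76e-24), whereas *Id1*, a BMP target, rose (log2 fold change 1.35, SE 0.15, adjusted p = 3.39e-10).

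The Wnt list was lower for 14 of 30 (46.7%) and higher for 8 (26.7%), shares nearer to the 37.5% and 35.8% of all genes. *Rspo2*, which amplifies Wnt signals, lay from 10.3 to 52.2 CPM (median 23.8) at day 0 and from 0.0553 to 0.691 CPM (median 0.299) at day 2 (log2 fold change -6.27, SE 0.32, adjusted p = 1.67e-18). *Lrp5*, a Wnt co-receptor, lay from 13 to 42.6 CPM (median 22.1) at day 0 and from 47.4 to 137 CPM (median 97.6) at day 2 (log2 fold change 1.98, SE 0.23, adjusted p = 1.78e-09). Ranges did not overlap for either gene. In the Notch list 11 of 20 were lower and 7 (35.0%) higher, the latter close to the share of all genes. *Jag1*, a Notch ligand, rose and lay from 0.516 to 5.92 CPM (median 1.44) at day 0 and from 20.8 to 76.5 CPM (median 40.0) at day 2 (log2 fold change 4.50, SE 0.20, adjusted p = 1.61e-20).

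Inflammatory and interferon genes fell together. Chemokines and inflammatory mediators were lower for 15 of 20 and higher for 2. *Ccl2*, which attracts monocytes, lay from 37.7 to 116 CPM (median 83.8) at day 0 and from 0.719 to 3.22 CPM (median 1.93) at day 2 (log2 fold change -5.51, SE 0.22, adjusted p = 7.97e-22). The members that rose, *Nfkbia* and *Tnfaip3*, encode inhibitors of NF-kappaB, and *Nfkbia* lay from 29.8 to 47.4 CPM (median 43.1) at day 0 and from 73.8 to 137 CPM (median 109.7) at day 2 (log2 fold change 1.41, SE 0.11, adjusted p = 9.12e-14). Interferon-stimulated genes, the antiviral programme, were lower for 28 of 32 and higher for 3 (median -2.41, or -2.31 with bounds for 4 members). *Ifit1*, which binds foreign RNA, lay from 20.1 to 95.4 CPM (median 50.6) at day 0 and from 0 to 0.455 CPM (median 0.179) at day 2 (log2 fold change -8.08, SE 0.38, adjusted p = 1.15e-19). *Ifit3* lay from 17.9 to 81.1 CPM (median 37) at day 0 and from 0.0541 to 0.39 CPM (median 0.146) at day 2 (log2 fold change -7.95, SE 0.32, adjusted p = 1.68e-21). At least 17.9 CPM of either gene was present in every day 0 library and less than 0.5 CPM in every day 2 library. *H2-K1*, a class I histocompatibility gene, rose against the list, with overlapping ranges (log2 fold change 1.45, SE 0.14, adjusted p = 1.54e-11).

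The promoters of *Ifit1*, *Ifit3* and *Isg15* are shown for the motif that marks this programme, the core of the interferon-stimulated response element, which is GAAA followed by any 2 bases and GAAA. It was found, with the same window and on either strand, in 38.5% of 26 list genes and in 3.46% of all genes with a promoter, which again describes the list and not the day effect. *Isg15*, a ubiquitin-like protein chosen after its values were seen, lay from 4.13 to 13.9 CPM (median 9.42) at day 0 and from 0.112 to 0.882 CPM (median 0.427) at day 2 (log2 fold change -4.29, SE 0.23, adjusted p = 8.63e-18).
Ifit1 (chr19:34640779-34640838, plus strand of GRCm38.p6): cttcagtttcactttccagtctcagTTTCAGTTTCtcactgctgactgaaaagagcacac
Ifit3 (chr19:34583382-34583441, plus strand of GRCm38.p6): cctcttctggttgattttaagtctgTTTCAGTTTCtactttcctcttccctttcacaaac
Isg15 (chr4:156200850-156200909, minus strand of GRCm38.p6): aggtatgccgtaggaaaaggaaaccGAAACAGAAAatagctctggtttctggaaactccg

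Stress genes went the other way. Of 29 genes of the integrated stress and unfolded protein response 24 were higher and 0 lower (median 2.04). *Atf4*, the factor at the centre of the response, lay from 147 to 252 CPM (median 207) at day 0 and from 759 to 974 CPM (median 830.1) at day 2 (log2 fold change 2.07, SE 0.12, adjusted p = 8.87e-17). *Chac1*, which degrades glutathione and is an ATF4 target, lay from 4.2 to 10.7 CPM (median 5.99) at day 0 and from 33 to 57.3 CPM (median 43.8) at day 2 (log2 fold change 2.79, SE 0.24, adjusted p = 1.61e-12). Both were chosen after their values were seen. *Dnajb9*, a chaperone partner of the endoplasmic reticulum, lay from 3.67 to 10.8 CPM (median 7.56) at day 0 and from 61.7 to 135 CPM (median 82) at day 2 (log2 fold change 3.59, SE 0.19, adjusted p = 1.83e-18). The 3 genes had no overlap between days. Members that were not called, named after their values were seen, included the chaperones *Hsp90b1* (log2 fold change -0.23) and *Calr* (0.16). The letters TGATGNAA, an amino acid response element, occurred in 19.2% of 26 list genes and in 3.91% of all genes with a promoter. *Chac1* carried them on the strand opposite to the gene. *Herpud1*, which was not called (log2 fold change -0.04), carried them too.
Chac1 (chr2:119351024-119351081, plus strand of GRCm38.p6): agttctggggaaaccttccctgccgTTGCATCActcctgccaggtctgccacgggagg

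Antioxidant and glutathione genes were divided, 15 of 33 higher and 10 lower (13 and 13 with library size alone). *Cat*, catalase, lay from 65.3 to 85.7 CPM (median 78) at day 0 and from 503 to 827 CPM (median 619.9) at day 2 (log2 fold change 3.08, SE 0.08, adjusted p = 2.64e-27). *Nqo1*, a quinone reductase and target of NRF2, fell and lay from 199 to 336 CPM (median 248) at day 0 and from 33.7 to 59.1 CPM (median 40.7) at day 2 (log2 fold change -2.65, SE 0.14, adjusted p = 2.11e-18). *Gstm2*, a glutathione transferase, lay from 57.3 to 95.4 CPM (median 69.9) at day 0 and from 5.02 to 8.87 CPM (median 6.35) at day 2 (log2 fold change -3.42, SE 0.10, adjusted p = 1.14e-25). The plot of list members shows how tightly the mitochondrial lists cluster and how widely the interferon and lipolysis lists spread.

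**Figure D3:**
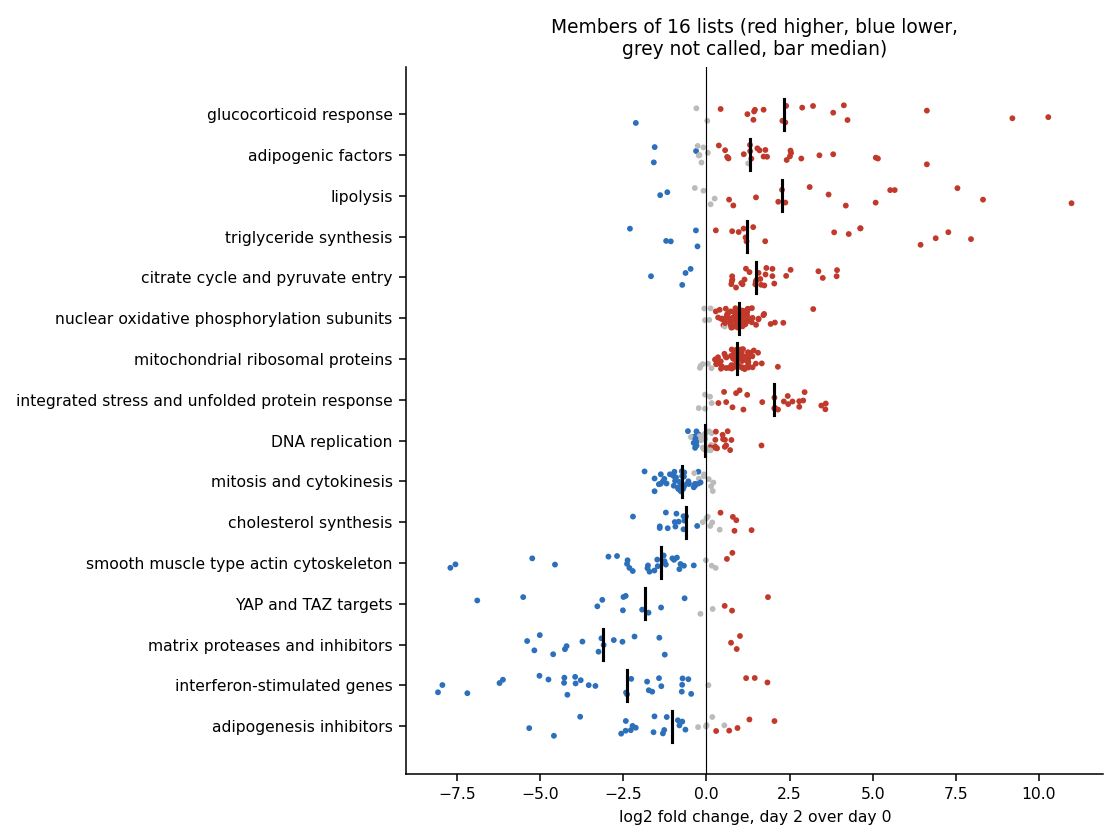
Log2 fold changes of day 2 over day 0 for the tested members of 16 gene lists, one point per gene, red for called higher, blue for called lower and grey for not called, with black bars at the median. The called members of the oxidative phosphorylation list lie to the right of 0 (median of all members 0.97), those of mitosis to the left (median -0.74), DNA replication straddles 0 (median -0.04), and interferon-stimulated genes reach down to -8.08.

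The clones agreed in most of what changed. Fitted alone, clone 48 gave 5155 genes higher (31.1%) and 5488 lower (33.1%) of 16563 tested, and clone 66 gave 5085 higher (30.3%) and 5235 lower (31.2%) of 16796. Of 16056 genes tested in both fits, 8450 (52.6%) were called in the same direction and 69 (0.43%) in opposite directions. A further 1809 were called in clone 48 only and 1390 in clone 66 only, which shows no difference between clones by itself. Across these genes the log2 fold changes of the clones had a Pearson correlation of 0.93, a description over genes that share libraries and are not independent.

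**Figure D4:**
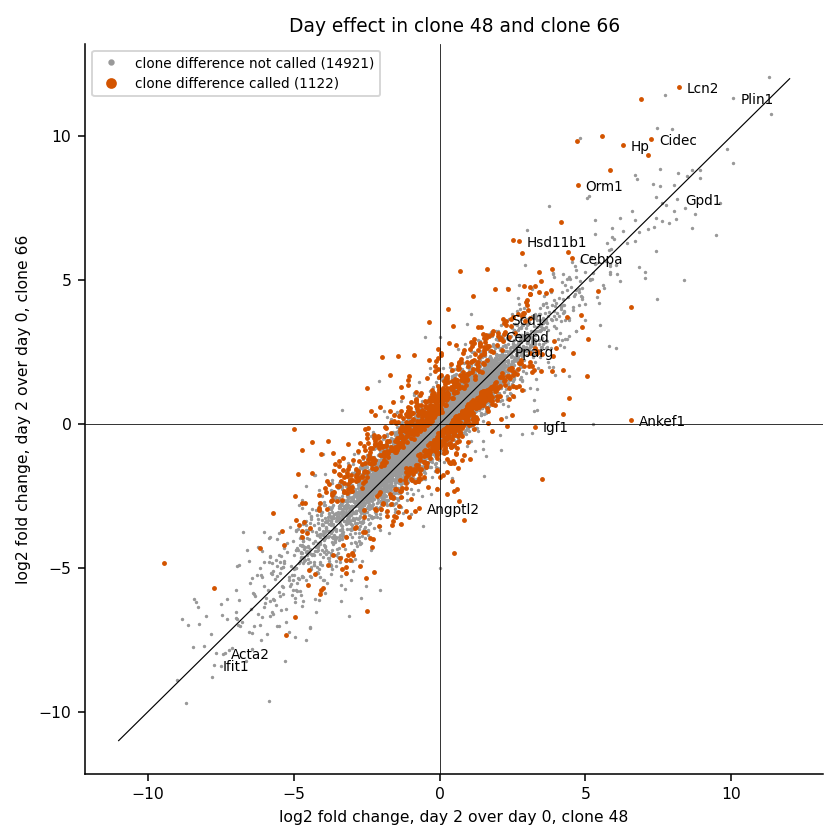
Log2 fold change of day 2 over day 0 in clone 48 (horizontal) and clone 66 (vertical) for 16043 genes, with the line of equal change. Orange points are the 1122 of these genes whose day effect differed between clones, grey points the other 14921. *Hp* and *Hsd11b1* lie above the line and *Igf1* and *Ankef1* below it.

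The difference between clones was tested directly, as an interaction of clone and day that counted *Rxra*WT and *Rxra*SA libraries of a number as separate. It was called for 1144 genes (6.84%), 604 with a more positive and 540 with a more negative change in clone 66, and 475 of them differed at least 2-fold. The lists were touched unequally. Of 81 nuclear oxidative phosphorylation genes, 81 cytosolic ribosomal proteins, 47 DNA replication genes and 25 fatty acid oxidation genes 0 differed. In contrast 10 of 20 glucocorticoid response genes did, and all 10 were more positive in clone 66. So did 7 of 16 acute-phase proteins, 6 of them more positive in clone 66, 7 of 18 matrix proteases and inhibitors, and 8 of 29 TGF-beta and activin genes. *Lcn2* belongs to both of the former lists.

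Values by clone show the size of it. *Lcn2*, lipocalin 2, an iron-binding acute-phase protein, stood at 43.9 to 62.6 CPM (median 48.6) at day 2 in clone 48 and 262 to 369.6 CPM (median 322) in clone 66, with at most 5 counts in any day 0 library. *Hp*, haptoglobin, stood at 41.6 to 58.9 CPM (median 50.05) and 225 to 311 CPM (median 288). *Hsd11b1*, which regenerates active glucocorticoid from its inactive form, rose from 0.727 to 2.75 CPM (median 1.46) to 6.51 to 15.5 CPM (median 10.8) in clone 48 and from 0.0863 to 0.611 CPM (median 0.421) to 25.9 to 37.6 CPM (median 29.4) in clone 66 (difference 3.58, SE 0.44, adjusted p = 1.94e-06). For the 3 genes the day 2 ranges of the clones did not overlap. *Cebpd* followed the same order at day 2, 34.8 to 47.9 CPM (median 39.5) in clone 48 and 54.3 to 82 CPM (median 66.2) in clone 66 (difference 1.02, SE 0.17, adjusted p = 0.000181). *Scd1* stood at 1155 to 2021 CPM (median 1526) and 3120.0 to 5298 CPM (median 4636) (difference 1.44, SE 0.21, adjusted p = 3.53e-05).

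*Cebpa* differed by its starting point instead. It began at 20.6 to 41.4 CPM (median 31.9) in clone 48 and 7.66 to 15.7 CPM (median 13.2) in clone 66, and ended at 624 to 862 CPM (median 779.8) and 622 to 742 CPM (median 684), where the ranges overlapped (difference 1.18, SE 0.20, adjusted p = 0.00018). *Igf1* differed on both days. It rose in clone 48 from 1.27 to 3.89 CPM (median 2.78) to 17.8 to 42.3 CPM (median 23.9) and remained at 12 to 22.5 CPM (median 18.6) and 13.2 to 17.6 CPM (median 17.3) in clone 66, where its change was not called (difference -3.41, SE 0.35, adjusted p = 7.59e-08). The pooled call of *Igf1* was lost when the WT and SA counts were summed. *Ankef1* had 0 counts in all day 0 libraries of clone 48 and 2.94 to 5.55 CPM (median 3.87) in clone 66. At day 2 it stood at 0.248 to 1.2 CPM (median 0.664) in clone 48 and 3.6 to 5.09 CPM (median 4.23) in clone 66.

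*Angptl2*, an angiopoietin-like secreted protein, fell in both clones, to 83.1 to 122 CPM (median 93.3) and 26.7 to 33.2 CPM (median 30.4) (difference -2.27, SE 0.19, adjusted p = 3.26e-09). *Ccnd1* at day 2 stood at 3.16 to 7 CPM (median 3.79) and 1.85 to 3.27 CPM (median 2.39), after 4.18 to 18.5 CPM (median 6.23) and 15.2 to 37.9 CPM (median 20.1) at day 0 (difference -2.25, SE 0.49, adjusted p = 0.00357).

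**Figure D5:**
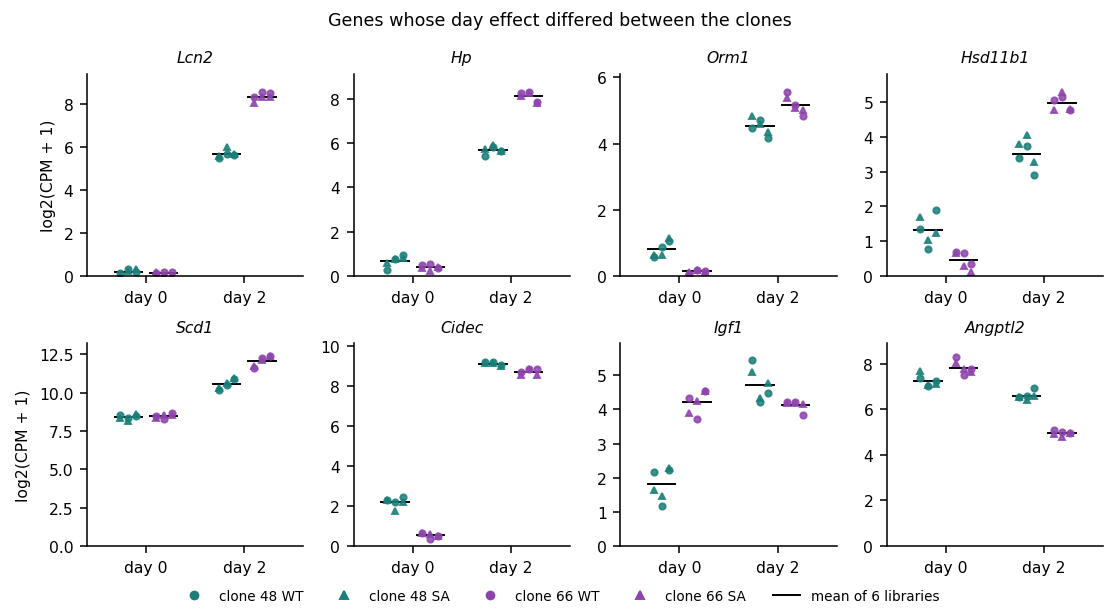
Levels of 8 genes whose day effect differed between clones, as log2(CPM + 1) in each library at day 0 and day 2, with clone 48 in green, clone 66 in purple, *Rxra*WT as circles, *Rxra*SA as triangles and bars at the mean of 6 libraries. *Lcn2* ends at 43.9 to 62.6 CPM in clone 48 and at 261.5 to 369.6 CPM in clone 66, and *Igf1* rises in clone 48 alone.

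The genotype did not alter the day effect detectably. The interaction of genotype and day was called for 0 of 16723 genes (0.0%) by edgeR, where 144 had an unadjusted p under 0.05, and for 0 by DESeq2, where 126 did.

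Levels at day 6, measured in 12 further libraries, are given beside those of day 2 as values, and any difference shares the day 2 libraries with the comparison above. *Fkbp5* had a median of 613 CPM at day 2 and 38.8 CPM at day 6. *Tsc22d3* stood at 212 and 46.7 CPM, and *Cebpd* at 51.1 and 7.83 CPM. Day 0 medians of the 3 genes were 36.8, 23.3 and 9.29 CPM. *Pparg* stood at 392.4 and 515 CPM and *Retn* at 16.5 and 363 CPM. *Ifit1* stood at 0.179 and 1.08 CPM, against 50.6 CPM at day 0.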

How the data were processed

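The 36 libraries were sequenced after stranded total RNA library preparation. The authors deposited raw read counts per gene for each library. Per the labels and the submitters' processing notes, reads were aligned with STAR 2.7.0d to GRCm38 (mm10) and counted with featureCounts 1.6.2 over GENCODE genes without use of strand, so overlapping and antisense genes could not be told apart. The authors also used edgeR 3.24.3. The files list 55536 genes.

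Counts were tested with the quasi-likelihood test of edgeR 4.0.16 (R 4.3.3, the form used before version 4) after filterByExpr and TMM scaling. All 36 libraries entered, in 6 groups of genotype by day plus a clone covariate, with Benjamini-Hochberg adjustment over 16723 genes. The day effect was the mean over both genotypes. Clones were also fitted alone. The interaction of clone with day was tested in a fit of all libraries with 12 groups of clone, genotype and day. That of genotype with day was tested in the main fit. DESeq2 1.42.0 was an alternative. The code was tested on simulated counts.

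Members and gene lists were chosen with earlier results of these data known. Named genes were fixed regulators, up to 2 members with the largest rise and up to 2 with the largest fall of each list (mean log2 CPM of at least 3), the 10 factors that rose and the 10 that fell most, the 8 genes that rose and the 8 that fell most in both clones, and the 8 with the largest clone difference (mean log2 CPM of at least 5 for the last 16 and 8). Exceptions are named as such, and some named genes are not reported here.

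*Rxra*WT and *Rxra*SA libraries of the same clone, day and number deviated together (correlation 0.176 to 0.93, all 12 pairs over 0.1, 9381 genes). In alternatives their counts were summed for the pooled day effect, and they shared a block for the genotype difference. The clone fits and the clone difference had neither form, only the replicate block. They counted such libraries as separate, so their p-values may be too small. Day 0 and day 2 libraries of a number deviated together in 9 of 12 pairs (-0.136 to 0.79). They were not paired in the main fit and shared a term only in the replicate block. Promoters are from RefSeq on GRCm38.p6.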

Additional observations from a re-analysis of the deposited data

Results flagged for a closer look

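Single libraries stood far from the other 5 of their clone and day for 7 of 96 groups of 6 tested, where chance flags about 1 in 20 (Dixon's test). *Rxra* had 233.3 CPM in WT replicate 2 of clone 48 at day 0, against 170.4 to 190.7 CPM in the others. *Pparg* had 95.76 CPM in WT replicate 3 of clone 48 at day 0, against 77.48 to 83.68 CPM in the others. *Pparg* had 55.33 CPM in SA replicate 2 of clone 66 at day 0, against 66.48 to 73.5 CPM in the others. *Cebpa* had 7.656 CPM in SA replicate 1 of clone 66 at day 0, against 12.12 to 15.67 CPM in the others. *Cebpb* had 6.667 CPM in WT replicate 1 of clone 48 at day 0, against 9.769 to 11.26 CPM in the others. *Ppargc1a* had 16.53 CPM in WT replicate 2 of clone 48 at day 0, against 12.96 to 14.12 CPM in the others. *Twist1* had 13.43 CPM in WT replicate 1 of clone 66 at day 2, against 10.68 to 11.38 CPM in the others. The ranges in the report include these libraries.

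The day effect differed between clones for 35 of the named genes reported here, tested as the interaction of clone and day in edgeR with adjusted p under 0.05. Values are the log2 fold change in clone 66 minus that in clone 48. More positive in clone 66 were 22 genes. The differences furthest from 0 were *Hsd11b1* 3.584, *Orm1* 3.516, *Lcn2* 3.45, *Hp* 3.366, *Orm3* 2.779, *Cidec* 2.586 and *Klf15* 1.865. Next came *Sox4* 1.46, *Scd1* 1.435, *Dnajb9* 1.251, *Cebpa* 1.184, *Mmp19* 1.118, *Npr3* 1.097 and *Cebpd* 1.024. The smallest were *Nfil3* 0.8914, *Pfkfb3* 0.8503, *Klf9* 0.8177, *Ptgs2* 0.7961, *Lgr4* 0.7095, *Scp2* 0.6125, *Wwtr1* 0.4172 and *Prrx1* 0.3995. More negative in clone 66 were 13 genes. *Ankef1* had -6.574, a size that its 0 counts at day 0 in clone 48 leave unmeasured. The others were *Igf1* -3.405, *Angptl2* -2.272, *Ccnd1* -2.25, *Rspo2* -2.114, *Osr2* -1.84 and *Ly6c1* -1.56, followed by *Eno3* -1.036, *Cp* -0.9854, *Hist1h1a* -0.9802, *Slc27a1* -0.9428, *Esrra* -0.7923 and *Ddit3* -0.69. Over 24 fits that each left out 1 library, 51 of these calls were lost, all of *Ptgs2*, *Prrx1*, *Pfkfb3*, *Osr2*, *Klf15* or *Cp*. *Ptgs2* and *Prrx1* lost the call with library size alone, and *Wwtr1* and *Prrx1* without a filter on low counts. Clone and sequencing pool cannot be told apart for any of them.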

How the results depend on the processing

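Other settings left most counts within 1.5 times of those reported. With library size alone 4190 genes were called higher and 8264 lower, and 3212 were higher in clone 66 alone, in place of 5989, 6270 and 5085. Without a filter on low counts 3404 genes were at least 2-fold higher and 5075 at least 2-fold lower, with more genes tested. With the replicate block, in which the number within a clone replaced or joined the clone term, 6342 genes were higher and 6638 lower, the clone difference was called for 2248 genes in place of 1144, genes called in opposite directions in the clones numbered 123 in place of 69, and the genotype difference was called for 0 (215 at an unadjusted p under 0.05). With a separate block for each clone, day and number, which could be fitted for the genotype difference, 0 were called (488). With *Rxra*WT and *Rxra*SA counts summed, 5597 genes were higher and 5881 lower, and of the named genes reported here *Bcat1*, *Actn4*, *Cspg4* and *Igf1* lost their call. *Hist2h2be* and *Actn4* lost it with library size alone.

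Leaving out libraries in 37 ways (each alone, both genotypes of a clone, day and number, or replicate 1 of either clone) gave 5592 to 6308 genes higher and 5892 to 6396 lower, 2163 to 2387 at least 2-fold higher and 2994 to 3323 at least 2-fold lower. The other results were refitted without single libraries, in 12 fits for each clone alone and 24 for the differences between clones. Clone 48 alone gave 4935 to 5564 higher and 5042 to 5449 lower, and clone 66 alone 4865 to 5113 and 5028 to 5324. Calls in both clones ran from 8149 to 8449 in the same direction and from 53 to 71 in opposite directions, the clone difference from 942 to 1461, and, over the 37 ways, the genotype difference from 0 to 0. The level at day 6 differed from that at day 2 for 150 to 157 named genes (155 of 210 tested with all libraries). Of all 16723 genes tested, 5328 were higher and 5038 lower at day 6 than at day 2.

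Directions turned for values that were not called. *Nr3c1* became -0.23 with library size alone (adjusted p = 0.00476) and -0.0002201 with a filter of 1 CPM, ran from -0.02022 to 0.1071 with both genotypes of a clone, day and number left out, and became -0.07042 without replicate 1 of either clone. *Gata3* became -0.08812 with library size alone and ran from -0.07349 to 0.4103 with such pairs left out. *Yap1* became 0.0414 without a filter and ran from -0.1597 to 0.1193, and *Egr1* became -0.06058 with the replicate block and ran from -0.5806 to 0.8069. List medians became -0.009203 for glycolysis and -0.09375 for G1 control with library size alone, and 0.01969 for bHLH factors without a filter. Of the other list medians, 55 moved by more than the replicate spread with library size alone, 17 without a filter and 5 with summed counts. Without a filter the median was 3.85 for acute-phase proteins, 0.75 for insulin and IGF signalling, -0.74 for the collagen list and -0.43 for cholesterol synthesis. The cause was not tested. Each clone is 1 isolate in 1 pool, and arms of 3 libraries limit what an interaction with genotype can detect.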
